A study of Mus musculus and Homo sapiens with 19 samples.

Results

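The experiment described here compared 4T1 cells that had been co-cultured with Bend3 with 4T1 cells grown alone. 4T1 is a mouse mammary carcinoma line, and Bend3 is a mouse brain endothelial line. The libraries were chosen by their labels: 1 library of 4T1 sorted from the co-culture and 1 library of monocultured 4T1, 2 of the 19 libraries of the series. No genetic change or drug is labelled on either. Both held cells labelled as the 4T1 breast cancer line, and the culture condition is the only label that differs between them. According to the labels, FACS separated tumour from endothelial cells after co-culture and before extraction. No sort is mentioned for monocultures, so an effect of the endothelial partner and an effect of sorting cannot be told apart. Neither the time in co-culture, the medium, the cell ratio nor the gate is given in the labels. The library of Bend3 sorted from the same co-culture was used to bound endothelial RNA carried into the 4T1 library, and its levels are given beside those of single genes. EMT6.5, a second mouse mammary carcinoma line, had the same pair of cultures with 1 library each and is given beside the 4T1 values; it shares no library with the 4T1 comparison.

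Tumour cells that enter or leave a vessel touch endothelial cells, and contact of this kind is known to act through Notch ligands, integrins, secreted factors and the competition for nutrients. The title of the series concerns PHGDH, the dehydrogenase that diverts a glycolytic intermediate into serine synthesis. Its gene and those of the other serine enzymes are targets of ATF4, a transcription factor that is translated more when amino acids run short or proteins misfold, and that switches on amino acid synthesis, amino acid import and tRNA charging. YAP and its partner TAZ are coactivators held in check by cell contact and by the LATS kinases, and drive genes such as Ccn1, Ccn2 and Ankrd1 through TEAD factors.

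The co-cultured 4T1 library held 4268428 counts in genes and the monocultured library 4304562, which made up 34.3% of all entries in co-cultured and 34.9% in monocultured 4T1. Entries aligned to several places made up 54.2% in co-cultured and 55.3% in monocultured 4T1, and such reads were counted in no gene. Genes with near-identical copies elsewhere in the genome, such as those with processed pseudogenes, can be counted low for this reason, and their values are uncertain. The 10 most abundant genes took 15.4% of counts in co-cultured 4T1 and 8.47% in monocultured 4T1. Mitochondrial ribosomal RNA was part of that gap: mt-Rnr2 stood at 30725 CPM in co-cultured 4T1 and 13313 CPM in monocultured 4T1, and mt-Rnr1 at 16867 CPM in co-cultured 4T1 and 5931 CPM in monocultured 4T1. The summed level of 13 protein-coding genes of mitochondrial DNA was 56451 CPM in co-cultured and 33651 CPM in monocultured 4T1. Of these 13 genes, 7 were measured and 5 had 0 counts in each library, so the sum does not cover all 13. The part of this difference in RNA composition in the results below was not tested.

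Values are counts per 1000000 gene counts (CPM) after TMM scaling, a correction for differences in RNA composition between libraries. A gene was measured when its mean over both libraries reached 5 CPM, and is called higher or lower in co-cultured 4T1 when its CPM ratio was at least 2-fold. With 1 library per condition there is no test and no replicate check. The range in parentheses after a ratio is its 95% exact counting interval, which covers counting error only and not the spread between cultures. Of 10211 genes measured, 1334 were higher (13.1%) and 1287 were lower (12.6%), and the median log2 ratio of all genes was -0.04. Every count of list members in 4T1 given below stands beside these shares. The interval lay wholly past 2-fold for 712 higher and 716 lower genes. At least 4-fold differences were found in 355 higher and 245 lower genes, and 16-fold differences in 49 higher and 32 lower genes. The only replicated 4T1 libraries without a knockdown were 3 with scramble shRNA (shSCR), from another experiment and another table. In each pair of them 0 or 1 genes were 2-fold apart, of 9663 to 9672 genes measured. Their SD of log2 ratios was 0.11 to 0.12, against 1.06 between co-cultured and monocultured 4T1. They were sequenced more deeply, at 14401891 to 18974886 gene counts, so their counting error is smaller.

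**Figure D1:**
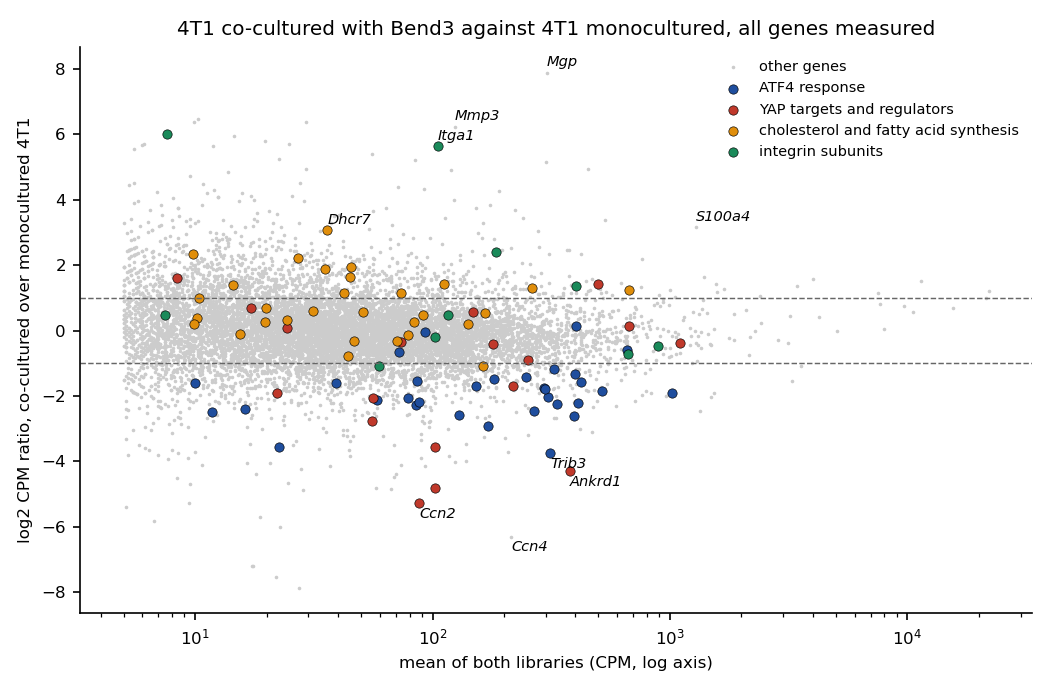
Log2 CPM ratio of co-cultured over monocultured 4T1 (vertical axis) by the mean CPM of both libraries (horizontal log axis) for the genes measured; colours mark 4 gene lists and dashed lines the 2-fold limits. ATF4 response genes lie almost wholly below the lower line and several YAP targets lie far below it. Mgp, Mmp3 and Itga1 are among the highest points, and 11 genes with 0 counts in a library are not drawn.

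The libraries were checked against cell type markers first. Mammary epithelial markers were plentiful in both, with 17 of 20 measured and summed levels of 2328 CPM in co-cultured and 2242 CPM in monocultured 4T1, against 54.6 CPM in Bend3. Cdh1, which encodes E-cadherin, was at 452 CPM in co-cultured 4T1 and 647 CPM in monocultured 4T1, with 4.6 CPM in Bend3. It also set 4T1 apart from EMT6.5, where it was at 0.858 CPM in co-cultured and 0.130 CPM in monocultured EMT6.5. Leukocyte markers were nearly absent: 9 of 12 had 0 counts in each library, and Cd68 and Cd14 were the 2 that passed the filter. Of the fibroblast markers, Dcn, Lum and Col3a1 had 0 counts in both libraries, while 6 of 12 were measured and their list summed to 194 CPM in co-cultured and 44.3 CPM in monocultured 4T1. Among these 6, 4 were at least 2-fold higher in co-cultured 4T1 and 1, Postn, was at least 2-fold lower. Over all genes, the SD of the difference in log2(CPM + 1) was 0.98 between co-cultured and monocultured 4T1, and 1.75 between co-cultured 4T1 and Bend3. Co-cultured 4T1 lay farther from the shSCR libraries of its own line, at 1.59, than from monocultured EMT6.5, at 1.40. For monocultured 4T1 these distances were 1.45 to shSCR and 1.46 to EMT6.5. The shSCR libraries come from another experiment and table, and the parts of these in the distance cannot be told apart.

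Endothelial markers were low but not absent in both 4T1 libraries. The 26 markers summed to 582 CPM in co-cultured and 255 CPM in monocultured 4T1, against 15565 CPM in Bend3. Sox17 and Sox18 had 0 counts in co-cultured 4T1, and Sox17, Sox18, Erg and Tal1 had 0 in monocultured 4T1. Of 13 markers measured, 7 were higher in co-cultured 4T1 and none was lower. Pecam1, the junction protein CD31, was at 31.0 CPM in co-cultured 4T1 and 8.35 CPM in monocultured 4T1 and at 2988 CPM in Bend3. Cdh5, the cadherin of endothelial junctions, was at 8.68 CPM in co-cultured 4T1 and 2.55 CPM in monocultured 4T1 and at 700.4 CPM in Bend3. The receptor gene Kdr was at 30.7 CPM in co-cultured 4T1 and 16 CPM in monocultured 4T1 and at 2219 CPM in Bend3. Reads of these 3 genes were thus found in the monocultured library as well, at levels far under those of Bend3. In the shSCR libraries Pecam1 was at 0.694, 0.235 and 0.264 CPM, below both cultures. Whether the reads in the monocultured library came from 4T1 or from Bend3 RNA was not tested.

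The share of Bend3 RNA in the co-cultured 4T1 library was bounded from 103 genes with at least 50 CPM in Bend3 and at most 0.5 CPM in monocultured 4T1. Summed over them, the excess in co-cultured 4T1 came to 2.04% of the Bend3 level (95% interval 1.92% to 2.16%). That interval covers counting error and not the choice of genes: those with at least 100 CPM in Bend3 and 0 counts in monocultured 4T1 gave 0.982%. The median of the gene shares was 1.29%, the 90th percentile 5.2%, and the range -0.30% to 32.3%. The list of endothelial markers gave 2.1%, of which Flt1, the VEGF receptor 1 gene, made up a large part, with 284 CPM in co-cultured 4T1 and 97.7 CPM in monocultured 4T1 and 325 CPM in Bend3. Of the 26 markers, 7 had an excess above 2.04% of their Bend3 level, and Flt1 was far above it. Among the 1334 higher genes, 880 (66.0%) had a higher CPM in Bend3 than in monocultured 4T1 and 454 did not. Over all 10211 genes measured, 3914 (38.3%) had a higher CPM in Bend3. The monocultured level enters both this comparison and the ratio, so part of the gap between 66.0% and 38.3% is fixed by construction. The excess over monoculture exceeded 2.04% of the Bend3 level in 1320 of the 1334, and 5.2% of it in 1306. After subtraction of Bend3 RNA at those shares, 1297 and 1262 of the 1334 were still at least 2-fold higher. Of the 1334 genes, 125 had at most 1 CPM in Bend3.

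**Figure D2:**
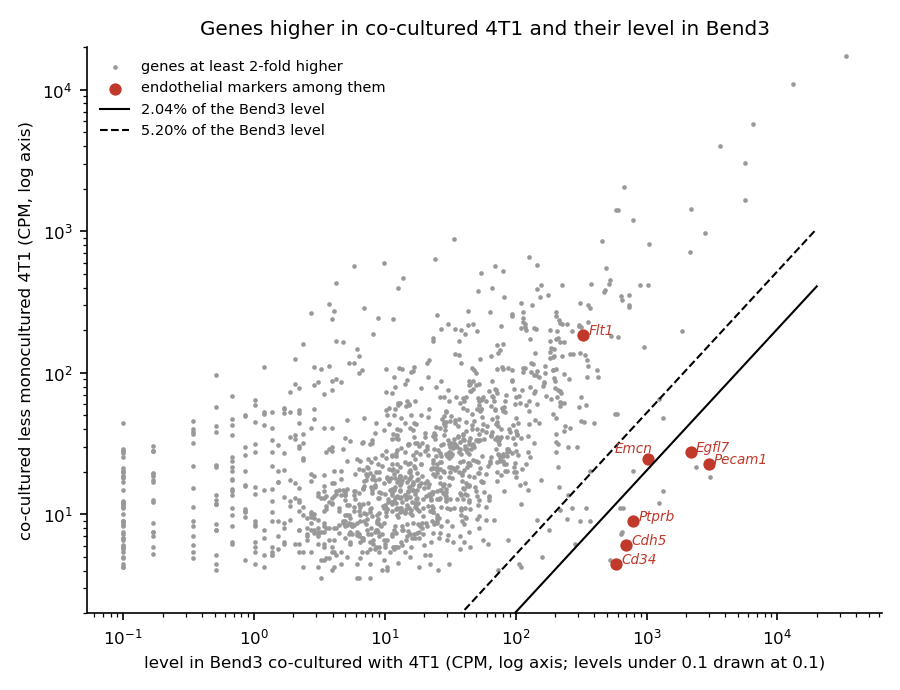
Level in co-cultured less monocultured 4T1 (CPM, log axis) by the level in Bend3 of the same co-culture (CPM, log axis; levels under 0.1 are drawn at 0.1) for the 1334 genes at least 2-fold higher in co-cultured 4T1. The solid and dashed lines mark 2.04% and 5.2% of the Bend3 level; nearly all genes lie above both, and the endothelial markers other than Flt1 lie near or below the solid line.

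Of the 42 gene lists described, the ATF4 response had the lowest median in co-cultured 4T1. Of 34 listed genes, 32 were measured, none was higher and 28 were lower, with a median log2 ratio of -1.88. The summed level of the list was 3838 CPM in co-cultured 4T1, against 11961 CPM in monocultured 4T1. Atf4 itself was at 225 CPM in co-cultured 4T1 and 812 CPM in monocultured 4T1, 3.60-fold lower (3.35 to 3.87). Trib3, a pseudokinase that feeds back on ATF4 (GRCm38 chromosome 2, 152337422 to 152344032), was at 43.2 CPM in co-cultured 4T1 and 581 CPM in monocultured 4T1, 13.5-fold lower (11.6 to 15.7). Ddit3, which encodes the stress factor CHOP, was at 39.9 CPM in co-cultured 4T1 and 303 CPM in monocultured 4T1, 7.59-fold lower (6.47 to 8.96). Chac1, a glutathione-degrading enzyme, was 6.04-fold lower (5.10 to 7.2) at 36.6 CPM in co-cultured 4T1 and 221 CPM in monocultured 4T1. Trib3, Ddit3 and Chac1 are known ATF4 targets, and with Atf4 they lay several-fold under their monoculture level. In the shSCR libraries Trib3 was at 10.1, 8.36 and 8.08 CPM, Ddit3 at 6.45, 6.06 and 5.86 CPM and Chac1 at 8.05, 7.30 and 6.34 CPM, below both cultures described here. The monocultured library thus had the highest level of these 3 genes among the 4T1 libraries named here, and how its culture bears on that was not tested.

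Other members followed the same direction. The secreted glycoprotein gene Stc2 was at 3.52 CPM in co-cultured 4T1 and 41.5 CPM in monocultured 4T1, and the chromatin-associated stress gene Nupr1 at 29.1 CPM in co-cultured 4T1 and 142 CPM in monocultured 4T1. Sesn2, a brake on the growth kinase mTORC1, was at 5.16 CPM in co-cultured 4T1 and 27.1 CPM in monocultured 4T1. Eif4ebp1, a repressor of cap-dependent translation, was at 133 CPM in co-cultured 4T1 and 464 CPM in monocultured 4T1. The partner factors Cebpg and Atf5 were lower as well, 2.80-fold (2.50 to 3.14) and 2.66-fold (2.42 to 2.94). The exceptions within 2-fold were Pck2, Slc38a2, Cebpb and Ddit4. Ddit4, an mTORC1 inhibitor also induced by hypoxia, stood at 419 CPM in co-cultured 4T1 and 381 CPM in monocultured 4T1, and Cebpb at 91.7 CPM in co-cultured 4T1 and 94.9 CPM in monocultured 4T1.

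**Figure D3:**
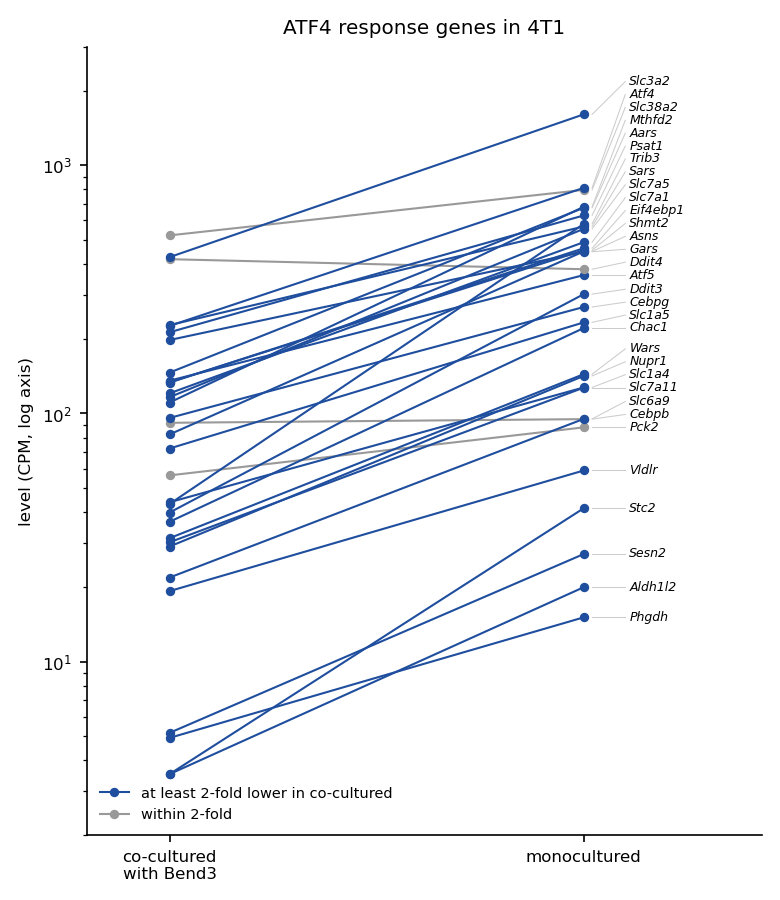
Level of each measured gene of the ATF4 response list (CPM, log axis) in co-cultured 4T1 (left) and monocultured 4T1 (right); lines join the values of a gene, dark for those at least 2-fold lower in co-cultured 4T1 and grey for those within 2-fold. The 28 dark lines all run upward to the right, and the 4 grey lines are flatter.

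ATF4 binds composite elements with the letters TGATGNAA, and these letters were searched for, on both strands, in the 250 bases before the RefSeq start of each gene (build GRCm38.p6). They were found for 1056 of 27025 genes (3.91%) and for 9 of the 29 ATF4 response genes that had an entry (31.0%). The list holds genes that are known targets, so this share is a description of the list and not of its lower genes. The 9 include Pck2, which was within 2-fold. The sequences below are those of 4 lower genes of the list that hold the letters, which are in capitals (TTNCATCA where they lie on the other strand). In Slc7a11, which encodes the cystine importer xCT, the letters occur as a pair.
Chac1 (chr2:119350992-119351241, plus strand): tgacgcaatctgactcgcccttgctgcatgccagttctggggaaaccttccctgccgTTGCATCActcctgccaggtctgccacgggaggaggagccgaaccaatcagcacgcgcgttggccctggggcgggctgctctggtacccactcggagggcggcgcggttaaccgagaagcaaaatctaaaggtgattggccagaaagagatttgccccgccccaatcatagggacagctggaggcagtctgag
Asns (chr6:7693210-7693459, minus strand): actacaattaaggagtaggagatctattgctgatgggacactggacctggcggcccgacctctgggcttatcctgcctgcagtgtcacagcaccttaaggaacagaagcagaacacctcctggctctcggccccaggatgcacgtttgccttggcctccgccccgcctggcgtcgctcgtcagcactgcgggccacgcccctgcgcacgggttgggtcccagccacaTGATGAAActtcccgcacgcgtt
Nupr1 (chr7:126625471-126625720, minus strand): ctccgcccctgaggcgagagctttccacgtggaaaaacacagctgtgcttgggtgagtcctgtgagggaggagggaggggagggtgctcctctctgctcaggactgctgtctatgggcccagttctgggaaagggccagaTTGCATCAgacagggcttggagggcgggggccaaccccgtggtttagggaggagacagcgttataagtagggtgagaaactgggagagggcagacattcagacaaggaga
Slc7a11 (chr3:50443614-50443863, minus strand): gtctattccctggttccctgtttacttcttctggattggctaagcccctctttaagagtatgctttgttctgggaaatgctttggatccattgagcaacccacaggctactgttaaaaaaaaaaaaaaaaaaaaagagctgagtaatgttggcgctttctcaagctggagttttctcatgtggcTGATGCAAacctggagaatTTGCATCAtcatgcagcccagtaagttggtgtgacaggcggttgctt

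The genes of all 3 steps of serine synthesis were lower. Phgdh (GRCm38 chromosome 3, 98313170 to 98339990) was at 4.93 CPM in co-cultured 4T1 and 15.1 CPM in monocultured 4T1, 3.06-fold lower (1.85 to 5.27), on 21 counts in co-cultured and 65 in monocultured 4T1. The shSCR libraries, counted in another table, had 169.7, 175 and 166 CPM of Phgdh, far above both cultures; how many Phgdh reads were lost here as aligned to several places was not tested. Psat1, the aminotransferase of the second step, was at 213 CPM in co-cultured 4T1 and 629 CPM in monocultured 4T1, 2.96-fold lower (2.74 to 3.19). Psph, the phosphatase that releases serine, was at 46.0 CPM in co-cultured 4T1 and 181 CPM in monocultured 4T1, 3.95-fold lower (3.37 to 4.64). None of the 3 intervals reached a ratio of 1, and those of Psat1 and Psph lay wholly past 2-fold.

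Genes of mitochondrial one-carbon metabolism were lower too, whereas their cytosolic counterparts were within 2-fold. Shmt2, which turns serine into glycine in mitochondria, was at 133 CPM in co-cultured 4T1 and 455 CPM in monocultured 4T1, 3.41-fold lower (3.10 to 3.75). Mthfd2, the next enzyme, was at 111 CPM in co-cultured 4T1 and 681 CPM in monocultured 4T1, 6.15-fold lower (5.58 to 6.80), and Aldh1l2, which oxidises mitochondrial formyl-tetrahydrofolate, at 3.52 CPM in co-cultured 4T1 and 20 CPM in monocultured 4T1. The cytosolic counterparts Shmt1 and Mthfd1 were at 48.8 CPM in co-cultured 4T1 and 73.3 CPM in monocultured 4T1, and at 44.3 CPM in co-cultured 4T1 and 50.8 CPM in monocultured 4T1, both within 2-fold. Cth, which makes cysteine from cystathionine, was 6.11-fold lower (4.73 to 7.99). Mat2a, the S-adenosylmethionine synthase, went the other way at 649 CPM in co-cultured 4T1 and 277 CPM in monocultured 4T1, 2.35-fold higher (2.19 to 2.51). Over the list of serine and one-carbon genes, 19 of 23 were measured, 2 were higher and 8 lower, with a median log2 ratio of -0.81.

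Amino acid supply and charging showed the same direction. Of 14 measured amino acid transporters 8 were lower and 2 higher (median log2 ratio -1.61), and of 20 aminoacyl-tRNA synthetases 13 were lower and none higher (-1.35). Slc7a5 and Slc3a2, the light and heavy chain of the leucine carrier LAT1, were at 116 CPM in co-cultured 4T1 and 555 CPM in monocultured 4T1, and at 427 CPM in co-cultured 4T1 and 1606 CPM in monocultured 4T1. The cationic carrier Slc7a1 was at 121 CPM in co-cultured 4T1 and 490.5 CPM in monocultured 4T1, and the glutamine carrier Slc1a5 at 72.2 CPM in co-cultured 4T1 and 233 CPM in monocultured 4T1. Slc43a2, a facilitative carrier of large neutral amino acids, differed from these at 54.0 CPM in co-cultured 4T1 and 3.48 CPM in monocultured 4T1, 15.5-fold higher (9.20 to 28.2). Slc36a4 was the other higher carrier, on 30 counts in co-cultured and 13 in monocultured 4T1, and was under 2-fold once 5.2% of its Bend3 level was subtracted.

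Asns, asparagine synthetase, was at 82.3 CPM in co-cultured 4T1 and 450.1 CPM in monocultured 4T1, 5.47-fold lower (4.88 to 6.14). Among the synthetases that load tRNAs, the alanine, tryptophan, threonine and leucine enzymes were the lowest: Aars was at 146 CPM in co-cultured 4T1 and 675 CPM in monocultured 4T1, Wars at 31.4 CPM in co-cultured 4T1 and 144 CPM in monocultured 4T1, Tars at 181 CPM in co-cultured 4T1 and 801 CPM in monocultured 4T1 and Lars at 159 CPM in co-cultured 4T1 and 626 CPM in monocultured 4T1. The enzymes for lysine and aspartate stood near their monoculture level, with ratios of 0.957 (0.880 to 1.04) for Kars and 0.843 (0.733 to 0.968) for Dars. The glutamine enzyme Qars had a ratio of 1.72 (1.53 to 1.93). The synthetases summed to 3075 CPM in co-cultured and 7703 CPM in monocultured 4T1. Of 17 nucleotide synthesis enzymes, all measured, 3 were lower and none higher, beside 12.6% lower and 13.1% higher of all genes. These 3 were Ctps at 53.7 CPM in co-cultured 4T1 and 266 CPM in monocultured 4T1, the pyrimidine enzyme Cad at 63.6 CPM in co-cultured 4T1 and 165 CPM in monocultured 4T1, and Prps1, the phosphoribosyl pyrophosphate synthetase, at 79.8 CPM in co-cultured 4T1 and 199 CPM in monocultured 4T1.

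The endoplasmic reticulum folding list had no such common direction. Of its 21 measured members 3 were higher (14.3%) and 4 were lower (19.0%), beside 13.1% and 12.6% of all genes. The median log2 ratio was 0.12. Hspa5, the chaperone BiP, was at 1683 CPM in co-cultured 4T1 and 4863 CPM in monocultured 4T1, 2.89-fold lower (2.81 to 2.97), and Ero1l, the oxidase that passes oxidising equivalents to disulfide isomerases, was 2.95-fold lower (2.35 to 3.72). Atf6 and Herpud1 were lower as well. Calr, Dnajb9 and Pdia4 were higher, Pdia4 at 88.9 CPM in co-cultured 4T1 and 27.6 CPM in monocultured 4T1, 3.22-fold higher (2.61 to 3.99). Xbp1, the factor of the IRE1 branch, was at 108 CPM in co-cultured 4T1 and 122 CPM in monocultured 4T1 and within 2-fold.

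YAP and TAZ target genes were among the lowest in co-cultured 4T1. Ccn2, the matricellular protein CTGF (GRCm38 chromosome 10, 24595442 to 24598683), was at 4.46 CPM in co-cultured 4T1 and 172 CPM in monocultured 4T1, 38.5-fold lower (24.5 to 64.4). Ccn1, its relative CYR61, was at 14.3 CPM in co-cultured 4T1 and 97.2 CPM in monocultured 4T1, 6.79-fold lower (5.18 to 9.04). Ankrd1, an ankyrin repeat protein widely used as a YAP readout, was at 36.6 CPM in co-cultured 4T1 and 720.0 CPM in monocultured 4T1, 19.7-fold lower (16.7 to 23.3). All 3 intervals lay far past 2-fold. Amotl2, an angiomotin that binds YAP at junctions, was at 7.04 CPM in co-cultured 4T1 and 197 CPM in monocultured 4T1, 28.1-fold lower (19.5 to 41.8). Ajuba, a LIM protein that holds back LATS, was at 16 CPM in co-cultured 4T1 and 188 CPM in monocultured 4T1, 11.8-fold lower (9.20 to 15.3), and the kinase gene Lats2 was at 21.6 CPM in co-cultured 4T1 and 91.0 CPM in monocultured 4T1, 4.21-fold lower (3.35 to 5.35). Ccn2, Ankrd1, Amotl2 and Lats2 are all genes that YAP is known to induce.

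The coactivators and their partners did not follow their targets. Yap1 was at 154 CPM in co-cultured 4T1 and 205 CPM in monocultured 4T1, with a ratio of 0.751 (0.678 to 0.832). Wwtr1, which encodes TAZ, was at 722 CPM in co-cultured 4T1 and 271 CPM in monocultured 4T1, 2.66-fold higher (2.49 to 2.85). Among the TEAD factor genes, Tead1 had a ratio of 0.539 (0.492 to 0.589) and Tead4 of 1.60 (1.13 to 2.27). Axl, a receptor kinase gene on the list, was at 954 CPM in co-cultured 4T1 and 1247 CPM in monocultured 4T1. In all, 18 of 20 listed genes were measured, 8 were lower and 2, Wwtr1 and Amot, were higher, with a median log2 ratio of -0.65. Bend3 had 107 CPM of Ccn2, 83.9 CPM of Amotl2 and 134 CPM of Ccn1. In the shSCR libraries Ccn2 was at 475, 469.8 and 479 CPM and Ankrd1 at 336, 335 and 348 CPM. On a log scale, both genes were nearer there to monocultured than to co-cultured 4T1.

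The letters GGAATG, the core bound by TEAD factors, were searched for on both strands in the same 250 bases. They were found for 3880 of 27025 genes (14.4%) and for 8 of 15 YAP list genes with an entry (53.3%). The list holds known targets and regulators, so this share is a description of the list and not of its lower genes. The 8 include Yap1 and Axl, which were within 2-fold, and Wwtr1, which was higher. The sequences of 3 lower genes that hold them are given below, with the letters, or CATTCC on the other strand, in capitals. Ccn2 had no entry in the table.
Ankrd1 (chr19:36119845-36120094, minus strand): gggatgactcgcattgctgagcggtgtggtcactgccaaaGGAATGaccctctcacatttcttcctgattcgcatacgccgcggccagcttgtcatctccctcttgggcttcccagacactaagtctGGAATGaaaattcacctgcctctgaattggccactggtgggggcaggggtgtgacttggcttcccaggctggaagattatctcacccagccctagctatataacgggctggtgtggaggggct
Amotl2 (chr9:102717554-102717803, plus strand): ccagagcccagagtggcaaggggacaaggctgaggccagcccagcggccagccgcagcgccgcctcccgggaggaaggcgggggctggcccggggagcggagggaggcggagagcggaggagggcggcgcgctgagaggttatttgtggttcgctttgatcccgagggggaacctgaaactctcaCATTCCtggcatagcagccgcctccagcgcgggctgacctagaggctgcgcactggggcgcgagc
Ccn1 (chr3:145649986-145650235, minus strand): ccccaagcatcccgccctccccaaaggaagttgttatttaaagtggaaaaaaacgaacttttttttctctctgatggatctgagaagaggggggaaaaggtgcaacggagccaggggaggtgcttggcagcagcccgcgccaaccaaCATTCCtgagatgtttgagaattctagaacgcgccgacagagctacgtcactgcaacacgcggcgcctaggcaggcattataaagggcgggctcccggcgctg

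Several genes of TGF-beta feedback were lower, and the ID genes that BMP signals induce were higher. Pmepa1, a membrane protein that restrains TGF-beta signalling, was at 93.1 CPM in co-cultured 4T1 and 745 CPM in monocultured 4T1, 8.01-fold lower (7.21 to 8.91). The SMAD corepressor Skil was 2.58-fold lower (2.25 to 2.98). The ligand genes Inhba and Tgfb2 were lower, at 33.1 CPM in co-cultured 4T1 and 131 CPM in monocultured 4T1, and at 18.5 CPM in co-cultured 4T1 and 68.7 CPM in monocultured 4T1. The other ligands Tgfb1 and Tgfb3 went the opposite way, 3.33-fold higher (2.29 to 4.96) and 3.71-fold higher (2.77 to 5.02). Smad7, the inhibitory SMAD, was within 2-fold at 42.7 CPM in co-cultured 4T1 and 59.9 CPM in monocultured 4T1.

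ID proteins are helix-loop-helix factors that block differentiation factors from binding DNA. Id2 was at 362 CPM in co-cultured 4T1 and 19.0 CPM in monocultured 4T1, 19.0-fold higher (15.2 to 24.1). Id1 was at 131 CPM in co-cultured 4T1 and 26.5 CPM in monocultured 4T1, 4.96-fold higher (4.05 to 6.12), and Id3 at 331 CPM in co-cultured 4T1 and 60.1 CPM in monocultured 4T1, 5.51-fold higher (4.82 to 6.31). Id4, on 88 counts in co-cultured and 4 in monocultured 4T1, was at 20.6 CPM in co-cultured 4T1 and 0.928 CPM in monocultured 4T1, 22.2-fold higher (8.39 to 83.4). All 4 ID genes were thus higher. For Id2, 2.04% of its Bend3 level would be 1.65 CPM, against an excess of 343 CPM. The whole list of BMP, TGF-beta feedback and ID genes had 18 of 28 measured, with a median log2 ratio of -0.04. Among the 18, 7 were higher and 5 lower, beside 13.1% higher and 12.6% lower of all genes.

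Notch receptors and ligands were divided, and targets that passed 2-fold were higher. The receptor gene Notch1 was at 137 CPM in co-cultured 4T1 and 6.5 CPM in monocultured 4T1, 21.1-fold higher (14.5 to 32.1). Notch2 was at 73.9 CPM in co-cultured 4T1 and 142 CPM in monocultured 4T1, with a ratio of 0.521 (0.454 to 0.598). Of the targets, Nrarp, a feedback inhibitor, was at 65.4 CPM in co-cultured 4T1 and 17.6 CPM in monocultured 4T1, 3.71-fold higher (2.87 to 4.85), and the repressor Hes1 at 182 CPM in co-cultured 4T1 and 88.4 CPM in monocultured 4T1, 2.06-fold higher (1.82 to 2.34). The ligand gene Dll4, known from endothelial tip cells, was at 12.0 CPM in co-cultured 4T1 and 2.78 CPM in monocultured 4T1, 4.30-fold higher (2.26 to 8.85), on 51 counts in co-cultured and 12 in monocultured 4T1, with 68.6 CPM in Bend3. The ligand gene Jag1 was the only lower member, at 31.0 CPM in co-cultured 4T1 and 80.0 CPM in monocultured 4T1, 2.59-fold lower (2.11 to 3.18). With 14 of 22 listed genes measured, 4 were higher and 1 lower, beside 13.1% higher and 12.6% lower of all genes. The median log2 ratio was 0.55. Notch1 had 197 CPM in Bend3, 2.04% of which is 4.01 CPM, and 121, 128 and 119 CPM in the shSCR libraries. Hes1 was under 2-fold once 5.2% of its Bend3 level of 348 CPM was subtracted.

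**Figure D4:**
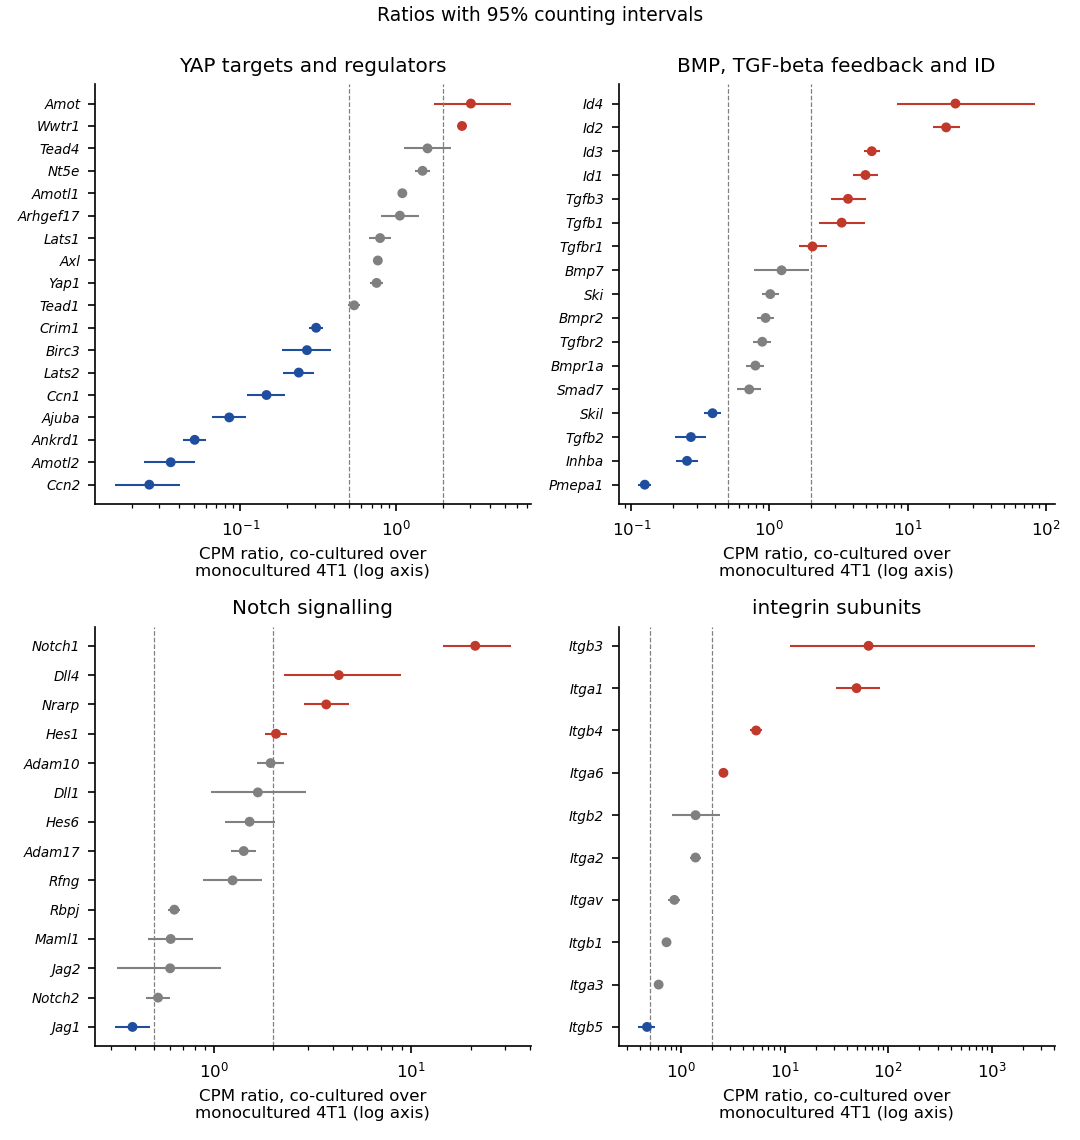
CPM ratio of co-cultured over monocultured 4T1 (log axis) for the measured members of 4 gene lists; points are ratios, bars 95% counting intervals, dashed lines the 2-fold limits, and colour marks higher (red), lower (blue) and within 2-fold (grey). Ccn2, Amotl2 and Ankrd1 lie lowest among YAP genes, Id4 and Id2 highest in their list, and Notch1 and Itgb3 highest in theirs; Itga8, with 0 counts in monocultured 4T1, and 1 member of the BMP and TGF-beta list are not drawn.

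Integrin subunits, the chains of the receptors that bind matrix, were divided, with the alpha-1, alpha-6, alpha-8, beta-3 and beta-4 genes higher and beta-5 lower. Itga1, the alpha subunit of a collagen receptor (GRCm38 chromosome 13, 114953096 to 115101964), was at 207 CPM in co-cultured 4T1 and 4.18 CPM in monocultured 4T1, 49.5-fold higher (31.2 to 84.0). Itga8, the alpha subunit of an RGD-binding integrin, was at 29.1 CPM in co-cultured 4T1 and had 0 counts in monocultured 4T1, at least 41.8-fold higher when 3 counts are taken as the floor of the monocultured library. Itga6 and Itgb4, which pair into the laminin receptor of hemidesmosomes, were at 582 CPM in co-cultured 4T1 and 226 CPM in monocultured 4T1, and at 312 CPM in co-cultured 4T1 and 58.7 CPM in monocultured 4T1. Itgb4 was 5.32-fold higher (4.65 to 6.11). Bend3 had 34.6 CPM of Itga1 and 3.75 CPM of Itga8, so 2.04% of its level would add under 1 CPM to either.

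The subunits of the integrin alpha-v beta-3 did not move together. Itgav was at 94.5 CPM in co-cultured 4T1 and 109 CPM in monocultured 4T1, with a ratio of 0.865 (0.755 to 0.990). Itgb3 had 64 counts in co-cultured 4T1 and 1 count in monocultured 4T1, which gives a ratio of 64.7 with an interval of 11.2 to 2595. Its level of 15 CPM in co-cultured 4T1 lay beside 123 CPM in Bend3, of which 2.04% is 2.51 CPM. Itgb3 met the limits for the genes that set this share, so the share is not independent of it. How much of its level was carried over from Bend3 was not tested. Itgb5, another partner of alpha-v, was 2.12-fold lower (1.76 to 2.57), and the shared subunit Itgb1 had a ratio of 0.726 (0.694 to 0.760). With 11 of 20 listed genes measured, 5 were higher and 1 was lower, beside 13.1% higher and 12.6% lower of all genes. The median log2 ratio was 0.47.

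Secreted matrix and matrix-degrading genes held some of the largest ratios. Mgp, matrix Gla protein, an inhibitor of calcification that also binds BMP ligands (GRCm38 chromosome 6, 136872435 to 136875823), was at 602 CPM in co-cultured 4T1 and 2.55 CPM in monocultured 4T1, 236-fold higher (132 to 473). Spp1, osteopontin, an integrin-binding secreted protein, was at 969 CPM in co-cultured 4T1 and 92.1 CPM in monocultured 4T1, 10.5-fold higher (9.48 to 11.7). Ecm1 was at 217 CPM in co-cultured 4T1 and 43.6 CPM in monocultured 4T1, 4.96-fold higher (4.24 to 5.84). Bend3 had 9.87, 33.7 and 128 CPM of these genes, so each of them was more abundant in co-cultured 4T1 than in Bend3. Ccn4, the matricellular protein WISP1 (GRCm38 chromosome 15, 66891320 to 66923201), was the opposite at 5.40 CPM in co-cultured 4T1 and 425 CPM in monocultured 4T1, 78.7-fold lower (52.3 to 124). Igfbp7 and Fbln2 were lower as well, at 32.1 CPM in co-cultured 4T1 and 162 CPM in monocultured 4T1, and at 94.5 CPM in co-cultured 4T1 and 216 CPM in monocultured 4T1. Postn, periostin, had 1 count in co-cultured and 43 counts in monocultured 4T1, a ratio of 0.0235 (0.000582 to 0.138). Fn1, fibronectin, was at 1249.8 CPM in co-cultured 4T1 and 1174 CPM in monocultured 4T1 and within 2-fold. The list had 13 of 26 genes measured, 3 higher and 6 lower, with a median log2 ratio of -0.78.

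Among matrix metalloproteases, the stromelysin genes had the highest ratios. Mmp3 (GRCm38 chromosome 9, 7445822 to 7455975) was at 245 CPM in co-cultured 4T1 and 3.25 CPM in monocultured 4T1, 75.3-fold higher (44.7 to 138), and its close relative Mmp10 had 91 counts in co-cultured and 5 in monocultured 4T1, 18.4-fold higher (7.6 to 58.0). The collagenase Mmp13 was 3.20-fold higher (1.86 to 5.78) and the sheddase Adam8 4.47-fold higher (3.30 to 6.16). Mmp9, the gelatinase, was at 88.4 CPM in co-cultured 4T1 and 108 CPM in monocultured 4T1, and its inhibitor Timp1 at 58.4 CPM in co-cultured 4T1 and 91.2 CPM in monocultured 4T1, both within 2-fold. The protease-inhibitor gene Serpine2 was at 176 CPM in co-cultured 4T1 and 8.82 CPM in monocultured 4T1, 20-fold higher (14.4 to 28.4), and Plat, tissue plasminogen activator, at 21.6 CPM in co-cultured 4T1 and 3.71 CPM in monocultured 4T1, 5.81-fold higher (3.40 to 10.6). The plasminogen system list had 7 genes measured, of which 2 were higher, 1 was lower and 4 were within 2-fold. Of 13 metalloproteases and inhibitors measured, 4 were higher and 1, the aggrecanase Adamts1, was lower. Both lists stand beside 13.1% higher and 12.6% lower of all genes.

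Of 11 collagen genes measured, 3 were higher and 2 lower, beside 13.1% higher and 12.6% lower of all genes. The ratio was above 1 in 9 of the 11, and the median log2 ratio was 0.47, against -0.04 for all genes. The collagen VI chains Col6a1 and Col6a2 were higher, 7.01-fold higher (5.45 to 9.12) and 14.3-fold higher (6.31 to 40.1), and Col8a1 and Col7a1 were lower, 3.07-fold lower (2.84 to 3.33) and 3.24-fold lower (2.35 to 4.55). The basement membrane chains Col4a1 and Col4a2 were within 2-fold, and Bend3 had 1501 and 981 CPM of them. Col4a1 was at 359 CPM in co-cultured 4T1 and 310.4 CPM in monocultured 4T1.

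Many sterol and fatty acid genes were higher in co-cultured 4T1. Of 33 listed genes 30 were measured, 12 were higher and 1, Msmo1, was lower, with a median log2 ratio of 0.59. Dhcr7, the last enzyme of cholesterol synthesis, was at 64.3 CPM in co-cultured 4T1 and 7.66 CPM in monocultured 4T1, 8.39-fold higher (5.84 to 12.4). The early enzyme Hmgcs1 was at 101 CPM in co-cultured 4T1 and 45.5 CPM in monocultured 4T1, 2.22-fold higher (1.87 to 2.65). The regulators Insig1 and Srebf1 were higher too, Insig1 on 70 counts in co-cultured and 14 in monocultured 4T1 and Srebf1 at 71.8 CPM in co-cultured 4T1 and 18.6 CPM in monocultured 4T1. Synthesis and desaturation genes thus both held higher members, and the desaturase Scd2 was at 945 CPM in co-cultured 4T1 and 399.5 CPM in monocultured 4T1.

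Several enzymes of the middle of the pathway were within 2-fold. Sqle was at 63.1 CPM in co-cultured 4T1 and 78.0 CPM in monocultured 4T1, Cyp51 at 61.0 CPM in co-cultured 4T1 and 40.8 CPM in monocultured 4T1 and Fdps at 15 CPM in co-cultured 4T1 and 16 CPM in monocultured 4T1. Fasn, the fatty acid synthase, was at 197 CPM in co-cultured 4T1 and 136 CPM in monocultured 4T1, and Acaca, which makes its substrate, at 32.4 CPM in co-cultured 4T1 and 55.9 CPM in monocultured 4T1. The letters TCACNCCAC, one form of the sterol element bound by SREBP factors, were found on either strand in the 250 bases before the start of 331 of 27025 genes (1.22%) and of 1 of the 22 listed genes with an entry. That gene was Hmgcs1, and its letters are in capitals.
Hmgcs1 (chr13:119690101-119690350, plus strand): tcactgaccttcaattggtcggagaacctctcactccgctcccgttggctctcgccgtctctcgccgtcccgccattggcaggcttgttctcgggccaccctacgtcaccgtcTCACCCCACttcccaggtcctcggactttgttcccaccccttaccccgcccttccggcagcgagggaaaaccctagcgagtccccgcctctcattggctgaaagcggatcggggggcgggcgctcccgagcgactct

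Across all genes, fewer were past 2-fold in EMT6.5 than in 4T1. Of 10291 genes measured there, 534 were higher (5.19%) and 687 were lower (6.68%). The EMT6.5 libraries were deeper than those of 4T1, with 4687548 gene counts in co-cultured and 7672654 in monocultured EMT6.5. The part of depth in the smaller numbers was not tested. Genes higher in both lines numbered 135, which is 10.1% of those higher in 4T1 and 25.3% of those higher in EMT6.5. Genes lower in both numbered 157, 12.2% of those lower in 4T1 and 22.9% of those lower in EMT6.5. Most genes past 2-fold in 4T1 were also measured in EMT6.5. The shared genes were 12.1% of the 1116 higher and 13.7% of the 1146 lower genes measured there. The Bend3 share bounded in the same way was 1.51% in co-cultured EMT6.5, and co-cultured 4T1 was less than 2-fold higher in 6 of the 135 after subtraction of the summed share. Opposite calls were found in 66 genes higher in 4T1 and lower in EMT6.5, and in 25 lower in 4T1 and higher in EMT6.5. Of the ATF4 list, 30 genes were measured in EMT6.5, 1 was higher and 4 were lower, with a median log2 ratio of -0.45. Chac1 was among the lower, at 16.9 CPM in co-cultured and 147 CPM in monocultured EMT6.5, whereas Trib3 was at 45.0 CPM in co-cultured and 66.9 CPM in monocultured EMT6.5. Of the YAP list, 6 of 19 were lower and none was higher (-0.63). Ccn2 was at 81.3 CPM in co-cultured and 623 CPM in monocultured EMT6.5, and Ankrd1 at 124 CPM in co-cultured and 775 CPM in monocultured EMT6.5. Id2 was at 455 CPM in co-cultured and 57.4 CPM in monocultured EMT6.5, and Mgp at 183 CPM in co-cultured and 2.46 CPM in monocultured EMT6.5. Ccn2, Ankrd1, Chac1, Id2 and Mgp lay past 2-fold on the same side in both lines.

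The sterol and fatty acid list lay on the other side in EMT6.5. There 24 of 31 measured genes were lower after co-culture and none was higher, with a median log2 ratio of -1.64. Dhcr7 was at 20.4 CPM in co-cultured and 77.2 CPM in monocultured EMT6.5, and Hmgcs1 at 64.6 CPM in co-cultured and 289 CPM in monocultured EMT6.5. Whether the lines differ was not tested, since each has 1 library per condition.

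**Figure D5:**
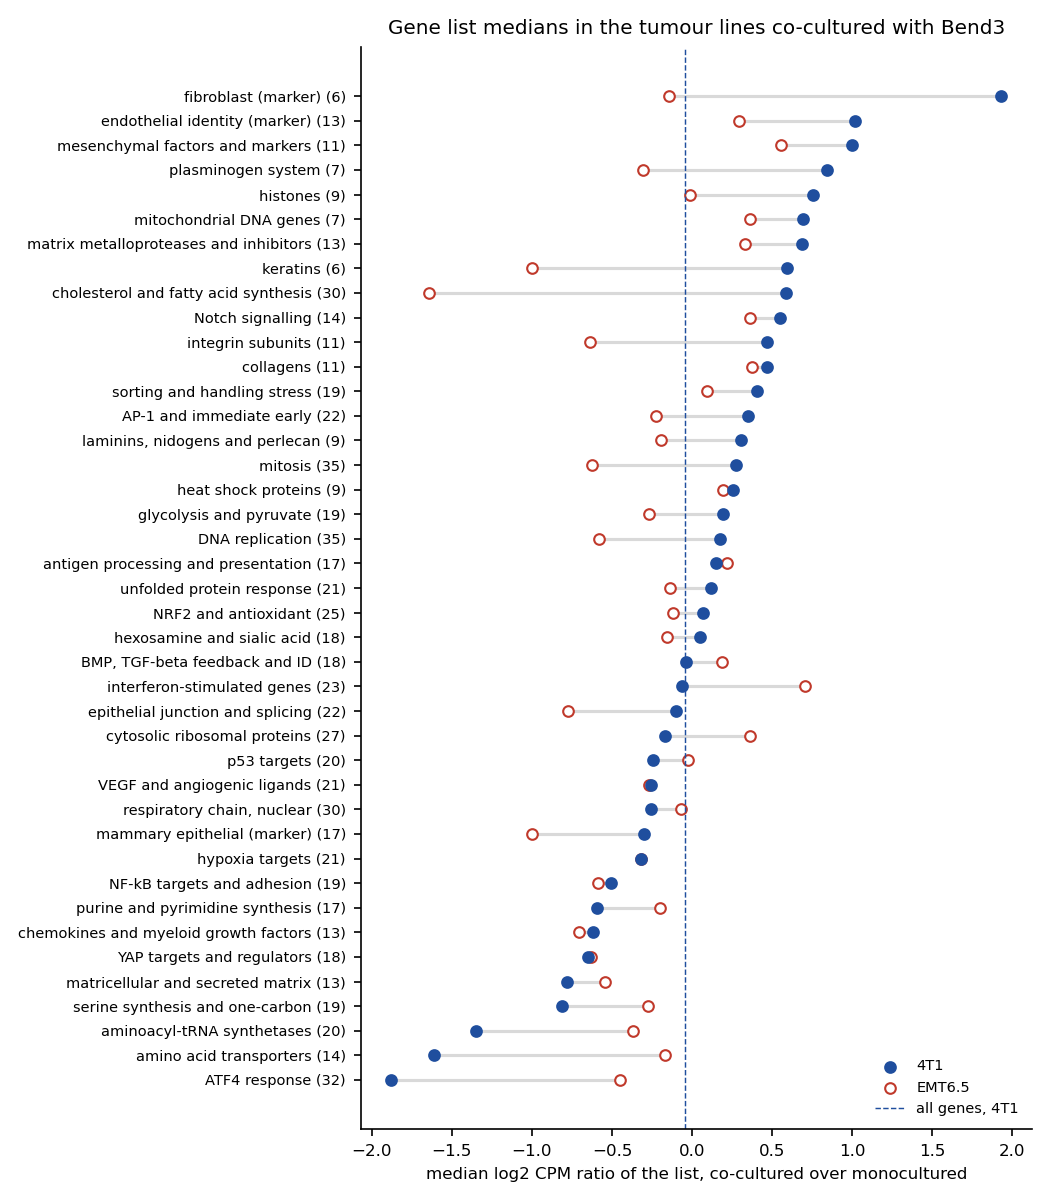
Median log2 CPM ratio of co-cultured over monocultured cells for each gene list with at least 5 members measured in both lines, in 4T1 (filled points, number measured in parentheses) and EMT6.5 (open points); the dashed line is the median of all genes in 4T1. ATF4 response genes, amino acid transporters and aminoacyl-tRNA synthetases lie lowest in 4T1, and the cholesterol and keratin lists lie on opposite sides in the 2 lines.

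Epithelial genes were divided, and mesenchymal genes were higher where they passed 2-fold. Of 22 measured genes of epithelial junctions and splicing 3 were higher and 7 lower, and of 11 mesenchymal genes 5 were higher and none lower. The shares over all genes were 13.1% higher and 12.6% lower. Epcam, the epithelial adhesion molecule, was at 196 CPM in co-cultured 4T1 and 70.3 CPM in monocultured 4T1, 2.79-fold higher (2.44 to 3.19), and Jup, plakoglobin, was 4.80-fold higher (3.96 to 5.86). Of 6 keratins measured, 8 and 19 were higher, and keratin 18 was at 826 CPM in co-cultured 4T1 and 428 CPM in monocultured 4T1, just within 2-fold. Krt80 was the lower one, at 1.88 CPM in co-cultured 4T1 and 31.1 CPM in monocultured 4T1, 16.6-fold lower (8.17 to 39.2). In contrast, Esrp1, a splicing regulator of epithelial cells, was 3.08-fold lower (2.51 to 3.79). The claudin genes Cldn4 and Cldn3 were 2.60-fold lower (2.25 to 3.00) and 2.46-fold lower (2.12 to 2.87), and the tight junction protein gene Cgn 3.25-fold lower (2.73 to 3.89).

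Vim, vimentin, was at 4957 CPM in co-cultured 4T1 and 1909 CPM in monocultured 4T1, 2.60-fold higher (2.53 to 2.66), with 5622 CPM in Bend3. S100a4, a calcium-binding protein of motile cells, was at 2307 CPM in co-cultured 4T1 and 258 CPM in monocultured 4T1, 8.94-fold higher (8.40 to 9.52). Snai1, a repressor of E-cadherin, lay at the 2-fold limit with 34.7 CPM in co-cultured 4T1 and 17.4 CPM in monocultured 4T1. The fibroblast markers were divided: of 6 measured, 4 were higher and 1, Postn, was lower, beside 13.1% higher and 12.6% lower of all genes. Among the higher, Pdgfra, a growth factor receptor gene, was at 37.5 CPM in co-cultured 4T1 and 4.64 CPM in monocultured 4T1, 8.09-fold higher (5.07 to 13.6).

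Cytokine and NF-kB genes were divided. Of 13 measured chemokines and myeloid growth factors 4 were higher and 6 lower, beside 13.1% higher and 12.6% lower of all genes. Csf1, the macrophage growth factor, was at 98.1 CPM in co-cultured 4T1 and 840.1 CPM in monocultured 4T1, 8.57-fold lower (7.74 to 9.50). Cxcl16 was 6.05-fold lower (4.86 to 7.61), Ccl5 8.31-fold lower (5.97 to 11.8) and Cxcl10 16.6-fold lower (8.81 to 35.3). On the higher side, Tslp, an epithelial cytokine, was at 276 CPM in co-cultured 4T1 and 34.6 CPM in monocultured 4T1, 7.98-fold higher (6.72 to 9.53), and the membrane-bound chemokine Cx3cl1 at 207 CPM in co-cultured 4T1 and 19.0 CPM in monocultured 4T1, 10.9-fold higher (8.68 to 13.8). Neither was abundant in Bend3, with 11.6 CPM of Tslp and 8.17 CPM of Cx3cl1. Of 19 NF-kB target and adhesion genes 5 were higher and 7 lower. Vcam1 was at 97.8 CPM in co-cultured 4T1 and 343 CPM in monocultured 4T1, 3.5-fold lower (3.14 to 3.92), and the feedback inhibitor Tnfaip3 was 2.80-fold lower (2.22 to 3.55). Cd44, the hyaluronan receptor, was at 1086 CPM in co-cultured 4T1 and 431 CPM in monocultured 4T1, 2.52-fold higher (2.39 to 2.66). Lcn2 was 10.2-fold higher (5.87 to 19.1), on 141 counts in co-cultured and 14 in monocultured 4T1.

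Among immediate early genes, which respond within minutes to growth factors and also to cell handling, 5 of 22 were higher and 4 lower. Over all genes measured, 13.1% were higher and 12.6% lower. Fos was at 74.6 CPM in co-cultured 4T1 and 16.9 CPM in monocultured 4T1, 4.40-fold higher (3.41 to 5.76), Nr4a1 was 4.59-fold higher (3.56 to 5.99), and Egr3 had 242 counts in co-cultured and 8 in monocultured 4T1. Jun, Junb and Jund were within 2-fold. Lower were Myc, at 31.0 CPM in co-cultured 4T1 and 298 CPM in monocultured 4T1, 9.62-fold lower (8.04 to 11.6), Atf3, at 11.3 CPM in co-cultured 4T1 and 168 CPM in monocultured 4T1, 14.9-fold lower (11.1 to 20.4), and the Fos relatives Fosl1 and Fosl2. Of the 19 genes measured from the list of genes sensitive to sorting and handling, 6 were higher and 2 lower, with a median log2 ratio of 0.41, and their summed level was 2467 CPM in co-cultured and 2694 CPM in monocultured 4T1. The part of handling in these values was not tested. Bend3 had 305 CPM of Fos.

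Angiogenic ligands and receptors were divided, with 7 of 21 measured genes higher and 5 lower, beside 13.1% higher and 12.6% lower of all genes. Vegfc, the lymphatic growth factor, had 10 counts in co-cultured and 63 in monocultured 4T1, 6.23-fold lower (3.18 to 13.6). Pdgfb, the ligand that recruits pericytes, was at 16.9 CPM in co-cultured 4T1 and 96.3 CPM in monocultured 4T1, 5.70-fold lower (4.43 to 7.43), and Apln was 2.85-fold lower (2.18 to 3.76). Vegfa was at 37.1 CPM in co-cultured 4T1 and 70.3 CPM in monocultured 4T1, with a ratio of 0.527 (0.432 to 0.641). Edn1, endothelin 1, was at 1.88 CPM in co-cultured 4T1 and 55.0 CPM in monocultured 4T1, 29.3-fold lower (14.6 to 68.7). Angptl2, a secreted angiopoietin-like protein, was on the other side at 295 CPM in co-cultured 4T1 and 30.4 CPM in monocultured 4T1, 9.72-fold higher (8.11 to 11.7), and Bend3 had 2.72 CPM of it.

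Of 19 glycolysis genes 4 were higher and 2 lower, beside 25.7% of all genes past 2-fold in either direction. Of the phosphofructokinases, Pfkl was at 167 CPM in co-cultured 4T1 and 77.3 CPM in monocultured 4T1, 2.16-fold higher (1.89 to 2.46), and Pfkm at 24.6 CPM in co-cultured 4T1 and 8.82 CPM in monocultured 4T1, 2.79-fold higher (1.91 to 4.16). The platelet isoform Pfkp was level at 43.2 CPM in co-cultured 4T1 and 44.1 CPM in monocultured 4T1. Pfkfb3, which makes the activator of phosphofructokinase, had 8 counts in co-cultured and 52 in monocultured 4T1, 6.43-fold lower (3.03 to 15.7). In the hexosamine and sialic acid branch, Gfpt1, the entry enzyme, was at 113 CPM in co-cultured 4T1 and 74.9 CPM in monocultured 4T1, with a ratio of 1.51 (1.31 to 1.75). Gnpnat1, the acetyltransferase of the next step, was at 8.21 CPM in co-cultured 4T1 and 75.6 CPM in monocultured 4T1, 9.21-fold lower (6.49 to 13.5). Gne, which commits the sugar to sialic acid, was 2.41-fold lower (1.66 to 3.56), and Nans had a ratio of 0.926 (0.797 to 1.08). Cmas, which activates sialic acid, was at 104 CPM in co-cultured 4T1 and 46.4 CPM in monocultured 4T1, 2.24-fold higher (1.90 to 2.67).

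Sialyltransferases, which attach sialic acid to cell surface glycans, held several higher genes. St6gal1, which makes alpha-2,6 links on N-glycans, was at 80.7 CPM in co-cultured 4T1 and 17.6 CPM in monocultured 4T1, 4.58-fold higher (3.56 to 5.95). St3gal4 was at 105 CPM in co-cultured 4T1 and 26.7 CPM in monocultured 4T1, 3.92-fold higher (3.19 to 4.86), and St3gal1 at 108 CPM in co-cultured 4T1 and 32.5 CPM in monocultured 4T1, 3.32-fold higher (2.74 to 4.04). St3gal5, the ganglioside GM3 synthase, had 125 counts in co-cultured and 14 in monocultured 4T1, 9.03-fold higher (5.18 to 17.0). None of the measured sialyltransferases was lower. The whole list of 18 measured genes had 6 higher and 2 lower, beside 13.1% higher and 12.6% lower of all genes.

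Among p53 targets, 8 of 20 were lower and 1 was higher. Plk2 was at 16.2 CPM in co-cultured 4T1 and 259 CPM in monocultured 4T1, 16-fold lower (12.6 to 20.7), and the death receptor gene Fas had 13 counts in co-cultured and 89 in monocultured 4T1, 6.77-fold lower (3.76 to 13.2). Cdkn1a, the cell cycle inhibitor p21, was the higher one at 105 CPM in co-cultured 4T1 and 39.9 CPM in monocultured 4T1, 2.64-fold higher (2.21 to 3.16), with 1250.5 CPM in Bend3. It was within 2-fold once 5.2% of that level was subtracted. Of 35 mitosis genes 5 were higher and 1 lower, and of 35 replication genes 6 were higher and none lower, beside 13.1% higher and 12.6% lower of all genes. The ratio was above 1 in 27 of the 35 mitosis genes (median log2 ratio 0.27) and in 24 of the 35 replication genes (0.17). Mki67 was at 208 CPM in co-cultured 4T1 and 101 CPM in monocultured 4T1, 2.06-fold higher (1.84 to 2.32). Ccnd1, cyclin D1, was at 2523 CPM in co-cultured 4T1 and 1639 CPM in monocultured 4T1. Of 23 interferon-stimulated genes 2 were higher and 6 lower, Irf7 being 4.61-fold higher (3.02 to 7.27) and Rsad2 5.47-fold lower (4.07 to 7.47). Of 30 nuclear genes of the respiratory chain 1 was higher and 2 lower.

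The counts of the remaining lists stand beside 13.1% higher and 12.6% lower of all genes. Of 27 cytosolic ribosomal protein genes none was higher and 3 were lower. Of 9 heat shock genes 2 were higher and 1 lower, of 9 laminin and nidogen genes 1 was higher and none lower, and of 9 histone genes 2 were higher and none lower. The histone ratios were above 1 in 8 of the 9, with a median log2 ratio of 0.75. Of 17 antigen presentation genes 2 were higher and 3 lower, and of 25 NRF2 and antioxidant genes 5 were higher and 2 lower. Of 21 hypoxia targets 4 were higher and 5 lower, with a median log2 ratio of -0.32.

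Beyond the lists, the genes with the largest ratios by the interval bound nearest to 1 were named by rule, 15 in each direction. Besides those already given, the higher ones included Slpi, a secreted inhibitor of neutrophil elastase, at 584 CPM in co-cultured 4T1 and 16.2 CPM in monocultured 4T1, 35.9-fold higher (28.3 to 46.3). Nptx1, a secreted pentraxin, was at 875 CPM in co-cultured 4T1 and 28.3 CPM in monocultured 4T1, 30.9-fold higher (25.8 to 37.3), and Trib2, a pseudokinase related to Trib3, at 231 CPM in co-cultured 4T1 and 7.66 CPM in monocultured 4T1, 30.1-fold higher (21.3 to 44.0). Dio2, which activates thyroid hormone, had 246 counts in co-cultured and 3 in monocultured 4T1, a ratio of 82.9 with an interval of 28.0 to 405. Olfm1, Tmie and the nuclear corepressor gene Hr were 37.3-fold, 42.5-fold and 52.6-fold higher. Selp, Cxcr3, Fxyd3 and the gene model Gm29438 had 0 counts in monocultured 4T1 and 86, 101, 116 and 120 counts in co-cultured 4T1, at least 29.0-fold to 40.4-fold higher at a floor of 3 counts. Selp, the endothelial and platelet adhesion receptor P-selectin, was at 27.8 CPM in Bend3, and Fxyd3, an epithelial regulator of the sodium pump, had none there.

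On the lower side, Ctsw, a cathepsin, had 1 count in co-cultured 4T1 and 235 in monocultured 4T1, a ratio of 0.00430 (0.000108 to 0.0242). The metalloprotease gene Adam12 had 1 count in co-cultured and 187 in monocultured 4T1, and Nrg1, a ligand of the ERBB receptors, 1 count in co-cultured and 150 in monocultured 4T1. Slc16a6, a monocarboxylate carrier family member, had 1 count in co-cultured and 148 in monocultured 4T1. Gadd45b, a stress sensor, was at 6.33 CPM in co-cultured 4T1 and 134 CPM in monocultured 4T1, 21.1-fold lower (14.4 to 32.3). Igf2bp1, an mRNA-binding protein, was 28.0-fold lower (17.3 to 48.4), Fads3 29.0-fold lower (18.4 to 48.5) and Angptl6 22.4-fold lower (15 to 34.9). Cdsn and Moxd1 had 3 and 3 counts in co-cultured 4T1, against 193 and 158 in monocultured 4T1. For several of these genes almost all counts were thus in the monocultured library.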

How the data were processed

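RNA of cultured cells was sequenced as 50 bp single-end reads of stranded mRNA libraries, per the labels. The deposited files hold raw read counts per Ensembl gene. The submitters' processing notes name Trim Galore 0.5.0 and HISAT2 2.1.0, HTSeq with no version, and the build GRCm38. The sources used here give neither the annotation nor the settings for strand and overlap, so reads of antisense or overlapping genes may be shared. Summary lines of the files were left out of library sizes. The shSCR counts came from the knockdown table, scaled on its own, of which 13 library columns were not used.

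Library sizes were scaled by TMM (edgeR 4.0.16, R 4.3.3) over the 2 4T1 libraries, and likewise over the 2 EMT6.5 libraries; Bend3 was scaled by its total. Ratios carry 95% exact intervals (Clopper-Pearson on the conditional binomial, scipy 1.17.1), which cover counting error only. The interval and share steps were tested on simulated data. Coordinates are GENCODE vM21 on GRCm38, which matched 99.3% of gene identifiers, and promoter bases are RefSeq's on GRCm38.p6. The 42 gene lists, their members and the motifs were chosen with earlier results of these data known, and the motifs after values were seen. Named genes were the 15 highest and 15 lowest by interval bound with a mean of at least 10 CPM, list members past 2-fold, study genes (serine, one-carbon, integrin, sialic acid and phosphofructokinase genes) and the 4 most abundant members of lists whose median lay at least 0.3 from that of all genes; genes outside these, such as mitochondrial ribosomal RNA and list members named for being within 2-fold, were chosen after their values were seen. Alternatives were other scalings (library totals, DESeq2 1.42.0 size factors, TMM over 7 libraries), other filters and folds, and subtraction of Bend3 RNA. Some list members that enter the counts and medians are not reported here by name.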

Additional observations from a re-analysis of the deposited data

Results flagged for a closer look

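For 4 gene lists the median lay on opposite sides of the median of all genes in the 2 tumour lines, by at least 0.3 log2 in each; the difference between the lines was not tested. The cholesterol and fatty acid list had a median log2 ratio of 0.59 in 4T1 and -1.64 in EMT6.5. Keratins had 0.59 in 4T1 and -1.0 in EMT6.5, on 6 and 5 genes measured. Integrin subunits had 0.47 in 4T1 and -0.64 in EMT6.5. Mitosis genes had 0.27 in 4T1, where 5 of 35 were higher and 1 lower, and -0.63 in EMT6.5, where 8 of 35 were lower and none higher.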

How the results depend on the processing

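Scaling by library totals, by DESeq2 size factors or by TMM over 7 libraries kept the 328 of 333 named genes with a finite log2 ratio within their counting intervals (the other 5 had 0 counts in monocultured 4T1 and were not compared) and the counts of higher and lower genes within 1.5 times; TMM over 7 libraries changed which markers passed 5 CPM and moved the medians of the fibroblast and matricellular lists. Other choices moved the counts. Higher genes numbered 2417 at a mean of at least 1 CPM, 658 at 20 CPM and 4590 with no filter, where lower genes numbered 3715. With the interval wholly past 2-fold, 712 were higher and 716 lower, and at 1.5-fold 2362 and 2554. Without genes that had a higher CPM in Bend3 than in monocultured 4T1, 454 were higher and 1130 lower, so that 28.7% of the genes past 2-fold were higher, against 50.9% with all genes; the monocultured level enters both this filter and the ratio, so part of that fall is fixed by construction. Genes with at least 100 CPM in Bend3 and 0 counts in monocultured 4T1 gave a Bend3 share of 0.982%. In EMT6.5 a filter at 1 CPM gave 1306 higher and 1309 lower genes. Subtraction of the summed Bend3 share turned the median log2 ratio of the 2 leukocyte markers to -0.46 and the log2 ratio of Egfl7 to -1.33. Subtraction at 5.2% turned Plxnd1 to -0.23. These turns are the arithmetic of the Bend3 level taken off. The whole leukocyte list summed to 15.2 CPM in co-cultured 4T1 and 281 CPM in Bend3. Whether the excess of these genes came from Bend3 was not tested. No paired analysis was possible because each condition had 1 library, and leaving out a replicate was not possible for the same reason. Depth limits genes near 5 CPM, such as Phgdh, whose interval spans more than 2-fold.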

Other observations

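Genes past 2-fold in the same direction in both tumour lines were ranked by the smaller of their log2 ratios; the names below were chosen after their values were seen. After Mgp, those higher in both included Galnt15 and Scara5, both at 0 counts in monocultured EMT6.5. Ppl, periplakin, was at 104 CPM in co-cultured 4T1 and 8.35 CPM in monocultured 4T1, and at 42.9 CPM in co-cultured and 0.518 CPM in monocultured EMT6.5. Id2, Id1, Ecm1, Dio2, Col6a1, Col6a2 and Fos were also in this group. Il6ra, a subunit of the interleukin 6 receptor, was at 136 CPM in co-cultured 4T1 and 26 CPM in monocultured 4T1, and at 46.1 CPM in co-cultured and 8.68 CPM in monocultured EMT6.5. Bcl2l11, the death factor BIM, was at 237 CPM in co-cultured 4T1 and 60.3 CPM in monocultured 4T1, and at 176 CPM in co-cultured and 31.6 CPM in monocultured EMT6.5. Those lower in both were led by Postn, Ctsw, Edn1, Rab30 and Plk2, followed by Ccn2, Ankrd1, Chac1, Pdgfb and Krt80. Plk2 was at 30.9 CPM in co-cultured and 273 CPM in monocultured EMT6.5, and Htra1, a secreted serine protease, at 90.3 CPM in co-cultured 4T1 and 574 CPM in monocultured 4T1, and at 189 CPM in co-cultured and 739 CPM in monocultured EMT6.5.

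The shSCR libraries of 4T1, counted in another table and scaled apart, were set beside both libraries as a further description chosen after the data were seen. By log2(CPM + 1), their mean lay nearer to co-cultured than to monocultured 4T1 in 480 of 1217 higher genes matched by symbol (39.4%) and in 466 of 1197 lower genes (38.9%). Among single genes, Mmp3 was at 1.66, 2.59 and 1.69 CPM, Itga1 at 0.555, 0.530 and 1.06 CPM and Ccn4 at 35.2, 34.7 and 38.4 CPM. Median log2 ratios by chromosome ran between -0.20 on chromosome 13 and 0.09 on chromosome X.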
